A study of Homo sapiens with 4 samples.

Results

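The genes described here are 32 genes of cholesterol and fatty acid synthesis and of the system that controls them, chosen by gene symbol from the 26255 symbols that the FPKM tables list. All 32 symbols were found, and each averaged 1 FPKM or more (fragments per kilobase of transcript, scaled to library size), the level required for a test, which 11860 genes reached in all. The cells were MRC5, a cell line established from human fetal lung fibroblasts, labelled as normal cells of WT genotype, and RNA was sequenced at 48 h in every library. The control group was 2 libraries whose treatment label reads "no". The miRs group was 2 libraries labelled as treated with miRs, that is, microRNAs, short RNAs that pair with messenger RNAs and lower their output. The labels do not name the microRNAs, and the series title speaks of a negative-control miR, so whether the control cells received one cannot be told from the labels. Replicates are written control 1, control 2, miRs 1 and miRs 2, and paired values follow that order. Separate cultures are not mentioned in the labels, so p-values cover only library-to-library spread, possibly technical.

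Cells make cholesterol from acetyl units through the mevalonate pathway: acetoacetyl-CoA and HMG-CoA lead to mevalonate and isoprenoids, squalene is built from farnesyl diphosphate, and lanosterol is trimmed in several steps to cholesterol. Fatty acids are built from the same acetyl-CoA by ACLY, ACACA and FASN, then desaturated and elongated. Both branches are under the SREBP transcription factors, encoded by SREBF1 and SREBF2, which SCAP escorts from the endoplasmic reticulum to the Golgi when sterols are low, while the INSIG proteins hold SCAP back when sterols are high. Cultured fibroblasts are known to raise many of the synthesis genes together when sterols are low and to lower them when sterols are high. This does not extend to every regulator named here.

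In the whole series, 29 of 11860 genes passed an adjusted p of 0.05 in limma. Between 11622 and 11781 genes per library reached 1 FPKM. The number of fragments per library is unknown. The steps between low values put the worth of 1 fragment at 0.899 to 1.05 times that in control replicate 1. All 12 fibroblast markers, among them COL1A1, COL1A2 and VIM, were detected in every library, with summed levels of 14038 and 13182 FPKM in controls 1 and 2 and 8997 and 13984 FPKM in miRs 1 and 2. The summed level of 20 interferon response genes was 118 and 140.3 FPKM in controls 1 and 2 and 11426 and 2275 FPKM in miRs 1 and 2. All 20 were above both controls in both miRs libraries (29.5% of all tested genes). Some of them, such as OAS1, listed at 0 in both controls, reached the testing minimum only through the miRs libraries. No hepatocyte marker of 10 averaged 1 FPKM (ALB was listed at 0 in 3 libraries), and of 10 adipocyte markers 3 did (ADIPOQ, LEP and LPL were listed at 0 throughout). The adipocyte marker PLIN4 reached that average only through miRs 2. Of the fibroblast markers 6 were below both controls in both miRs libraries and 0 above (30.0% and 29.5% of all tested genes). Among these 6 were DCN and FAP, which had the smallest unadjusted p of the list in limma. DCN was at 963 and 1223 FPKM in controls 1 and 2 and 352 and 419 FPKM in miRs 1 and 2. FAP was at 30.5 and 33.8 FPKM in controls 1 and 2 and 7.91 and 11.7 FPKM in miRs 1 and 2. Of 12 epithelial markers 5 were tested, all above both controls in both miRs libraries (29.5% of all tested genes). Among them CLDN4 and CLDN7 averaged only 0.639 and 0.785 FPKM in control and reached the testing minimum through the miRs libraries. For these genes a place above the controls was thus nearly fixed by the minimum, and CLDN4 was named after its values were seen. Summed levels over the 12 were 30.3 and 32.5 FPKM in controls 1 and 2 and 199 and 268 FPKM in miRs 1 and 2. KRT18 and KRT19 passed an adjusted p of 0.05 in limma, while ESRP1 and GRHL2 were listed at 0 throughout and CDH1 in 3 libraries. The part of these markers in the results below was not tested.

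Promoter sequences are shown for the genes that the results below turn on: SREBF2 and INSIG1, which control the pathway, MSMO1, an enzyme that differed between replicates in both groups, and EBP and ELOVL6, which lay above the controls in both miRs libraries. Each is the stretch of 250 bases before 1 RefSeq start site per gene in GRCh38.p14, a build other than the hg19 of the deposited values, written 5′ to 3′ along the gene's strand. Capitals mark 3 motifs on either strand: the sterol regulatory element TCACNCCAC, its E-box form TCACGTGA, and the CCAAT box, whose letters read ATTGG where it lies on the opposite strand. The stretches are chr22:41832855-41833104 on the plus strand, chr7:155297628-155297877 on the plus strand, chr4:165327419-165327668 on the plus strand, chrX:48521558-48521807 on the plus strand and chr4:110198616-110198865 on the minus strand, in that order. The ELOVL6 stretch lies inside the RefSeq span of that gene, which reaches from 110045846 to 110199202, so its start site is an inner one.
SREBF2: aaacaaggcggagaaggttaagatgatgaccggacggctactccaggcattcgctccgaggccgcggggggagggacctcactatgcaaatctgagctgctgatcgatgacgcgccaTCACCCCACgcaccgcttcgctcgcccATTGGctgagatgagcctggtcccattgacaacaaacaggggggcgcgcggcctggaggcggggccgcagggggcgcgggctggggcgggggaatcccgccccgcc
INSIG1: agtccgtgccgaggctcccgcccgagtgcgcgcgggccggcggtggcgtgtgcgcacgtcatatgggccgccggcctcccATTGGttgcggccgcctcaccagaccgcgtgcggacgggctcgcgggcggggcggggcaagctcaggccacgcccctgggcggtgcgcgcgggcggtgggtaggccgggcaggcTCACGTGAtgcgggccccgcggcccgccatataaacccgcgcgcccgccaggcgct
MSMO1: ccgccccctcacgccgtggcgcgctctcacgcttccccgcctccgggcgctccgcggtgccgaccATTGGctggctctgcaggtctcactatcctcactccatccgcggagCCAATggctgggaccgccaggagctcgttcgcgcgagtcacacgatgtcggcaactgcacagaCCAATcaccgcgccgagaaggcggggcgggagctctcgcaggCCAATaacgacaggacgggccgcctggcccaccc
EBP: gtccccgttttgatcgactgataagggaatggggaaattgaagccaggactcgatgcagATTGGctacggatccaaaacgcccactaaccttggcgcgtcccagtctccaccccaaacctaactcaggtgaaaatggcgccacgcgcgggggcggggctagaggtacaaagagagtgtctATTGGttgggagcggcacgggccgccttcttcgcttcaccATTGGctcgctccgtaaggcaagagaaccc
ELOVL6: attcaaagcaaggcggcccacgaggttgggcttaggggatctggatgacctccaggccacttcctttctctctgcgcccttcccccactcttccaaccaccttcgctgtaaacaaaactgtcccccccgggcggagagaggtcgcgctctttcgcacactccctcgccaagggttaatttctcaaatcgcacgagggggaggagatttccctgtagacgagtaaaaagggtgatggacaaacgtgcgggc

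The SREBF2 stretch holds 1 sterol regulatory element, whose leftmost base is at position −133 from the start site, and 1 CCAAT box at −106. INSIG1 has 1 CCAAT box at −170 and 1 E-box form at −56. MSMO1 has 4 CCAAT boxes, EBP has 3, and ELOVL6 has none of the 3 motifs in this stretch. RefSeq windows of 300 bases (250 before to 50 after the start site) were at hand for 28 of the 32 genes, without ACAT2, FDFT1, SQLE and FASN. A CCAAT box lay in at least 1 window of 21 of the 28 (75.0%), against 43.4% of the 8959 tested genes with a window. The sterol regulatory element in these letters was found in 1 of 28, SREBF2, against 1.48% of tested genes with a window. The E-box form was likewise found in 1 of 28, INSIG1, against 2.38%. Over all 35116 windows, 34.6% held a CCAAT box, 1.13% the sterol regulatory element and 0.980% the E-box form. These are matches of letters and show no binding.

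Setting miRs against control asks which transcripts of the pathway differed with the microRNA treatment. EBP and ELOVL6 were the clearest differences among the 32 genes, at 1.97-fold and 1.66-fold of the control mean, and neither passed the test over all genes. No member passed an adjusted p of 0.05 in limma (0.245% of all tested genes did), and 3 had an unadjusted p under 0.05, EBP and ELOVL6 higher and PMVK lower in miRs (24.2% of all tested genes did). Both miRs libraries lay above both controls for 3 members, CYP51A1, EBP and ELOVL6 (29.5% of all tested genes), and below both for 5, PMVK, FDPS, TM7SF2, STARD4 and ACLY (30.0%). Groups thus did not overlap for 8 of the 32 genes, and for 59.5% of all tested genes. The members' median log2 difference, miRs minus control on the log2(FPKM + 1) scale, was 0.046, and that of all tested genes −0.0020. The median size regardless of sign was 0.22 for the members and 0.27 for all tested genes. Differences ran from −0.57 for FADS1 to 0.95 for EBP. This scale understates the change of low genes, and fewer cells of a type and less RNA per cell cannot be told apart in bulk RNA.

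The near-zero median joined unlike libraries. Set against the mean of the controls, the members' median was −0.18 for miRs 1 and 0.20 for miRs 2, while over all tested genes it was −0.0027 and 0.00083. In miRs 1, 18 of the 32 genes lay below both controls and 4 above (44.5% and 44.1% of all tested genes). In miRs 2, 7 lay below both controls and 19 above (42.6% and 42.7%). For 8 genes (ACAT2, MVK, LSS, SC5D, DHCR7, SREBF1, SREBF2 and FASN) miRs 1 lay below and miRs 2 above both controls (9.22% of all tested genes did). Without miRs replicate 1, limma called 2 members, EBP and ELOVL6, both higher (13.9% of all tested genes were called). Without miRs replicate 2 it called 7, EBP and ELOVL6 higher and PMVK, MVD, TM7SF2, SREBF2 and FADS1 lower (31.6% of all tested genes). Without control replicate 1 limma called no member and no gene at all (0.0% of all tested genes), and without control replicate 2 no member (0.00843% of all tested genes). The members' median log2 difference was −0.14 without control replicate 1 and 0.12 without control replicate 2. Over all tested genes it was 0.00029 and −0.0053 in these fits. A library left alone in its group was taken to vary as the other group did. With 2 libraries a group, an exact permutation test of 1 gene could not go below p = 0.333 (2-sided).

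**Figure D1:**
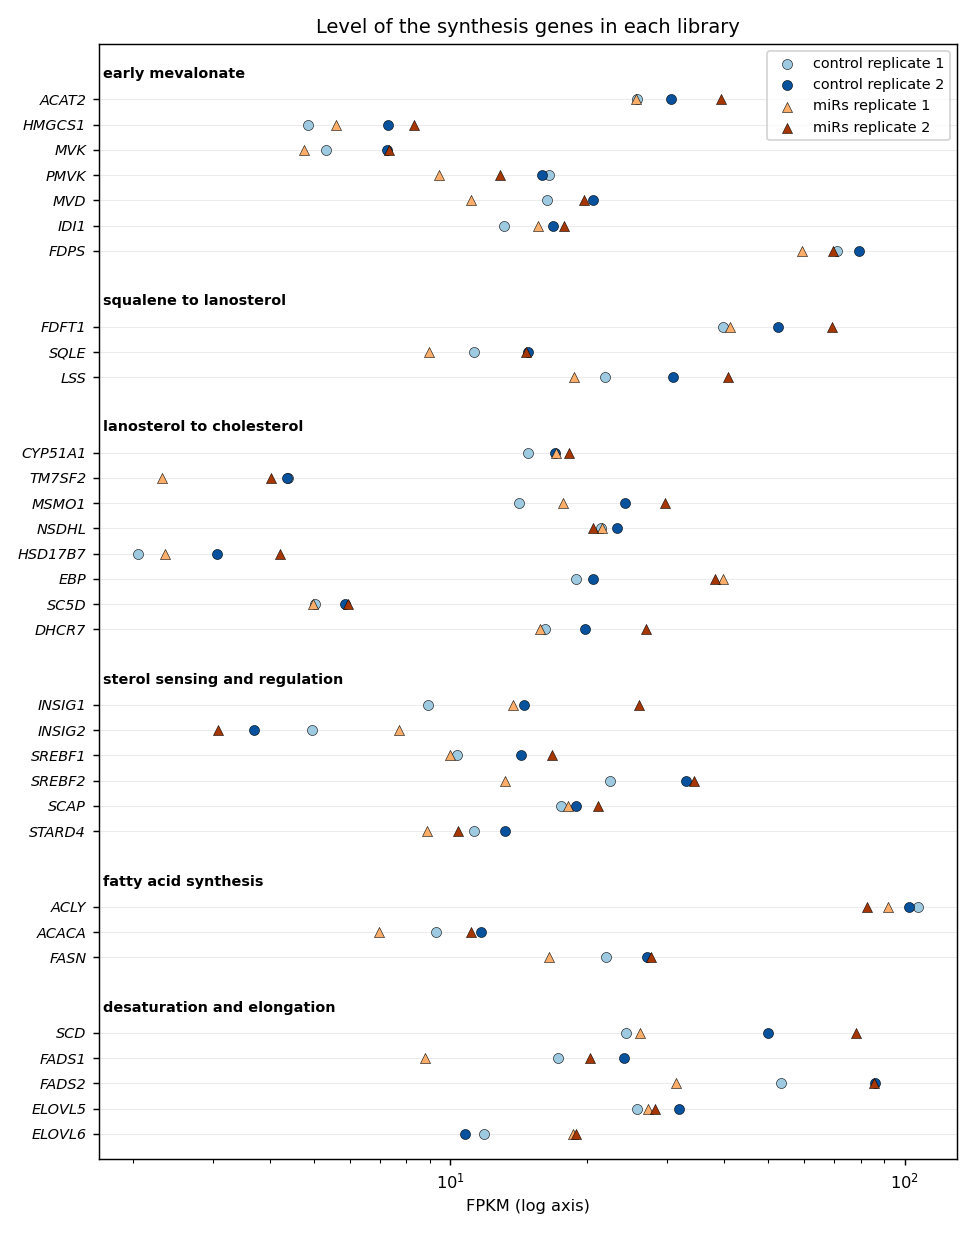
Level of each of the 32 genes in the 4 libraries, in FPKM on a logarithmic axis, grouped by role; circles are control and triangles miRs libraries, with replicate 1 in the light and replicate 2 in the dark shade. EBP and ELOVL6 show both triangles to the right of both circles, while for SCD, FADS2 and SREBF2 the dark symbols lie to the right of the light ones in both groups.

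The genes differed between the replicates of each group, mostly in 1 direction. Control replicate 2 was above control replicate 1 for 27 of the 32 genes (48.6% of all tested genes), miRs replicate 2 was above miRs replicate 1 for 28 (48.8%), and 25 were higher in replicate 2 in both groups (29.2%). The members' median gap, replicate 2 minus replicate 1 on the log2(FPKM + 1) scale, was 0.30 in control and 0.60 in miRs, against −0.0047 and −0.0099 over all tested genes. The miRs replicates were over 1.5-fold apart for 19 members (24.6% of all tested genes), 18 of them with replicate 2 the higher (12.6%). The control replicates were over 1.5-fold apart for 4, MSMO1, INSIG1, SCD and FADS2 (5.89%). Across the 32 genes, which share the same 4 libraries and are not independent, the gap in miRs and the gap in control had a Pearson's r of 0.83 and a Spearman's rho of 0.80. Over all 11860 tested genes r was 0.20. The miRs libraries also differed in summed interferon response genes (11426 against 2275 FPKM) and in summed fibroblast markers (8997 against 13984 FPKM), where the controls had 118 and 140.3 FPKM, and 14038 and 13182 FPKM. The fibroblast sum leans on its most abundant genes, COL1A1 alone being at 2337 and 2521 FPKM (control) and 1910 and 4742 FPKM (miRs). Set against the mean of the controls, the median log2 difference of the fibroblast markers was −0.71 for miRs 1 and −0.31 for miRs 2. Replicate 2 was above replicate 1 in both groups for 9 of the 12 fibroblast markers too, the share of all tested genes being 29.2%. LUM, a collagen-binding proteoglycan, was at 112 and 169 FPKM (control) and 41.7 and 70.9 FPKM (miRs), and PDGFRB, a growth factor receptor, at 53.8 and 74.0 FPKM (control) and 18.9 and 62.7 FPKM (miRs). VIM, FN1 and THY1 went the other way, with replicate 2 below replicate 1 in both groups. These markers were named here after their values were seen. Of the tested genes in the other lists of lipid genes, replicate 2 was the higher in both groups for 6 of 11 in liver X receptors and cholesterol export, 6 of 16 in sterol trafficking and SREBP processing, 5 of 18 in fatty acid supply, 5 of 19 in fatty acid oxidation and 1 of 13 in isoprenoid branches. The interferon response genes were higher in control 2 than in control 1 for 18 of 20 and higher in miRs 2 than in miRs 1 for 0 of 20. The part of these markers in the members' gaps was not tested. The pattern was picked out after the values were seen and is given as a description, with no test. Replicates have no order, and whether the same number in the 2 groups marks a shared culture or day is not stated in the labels.

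**Figure D2:**
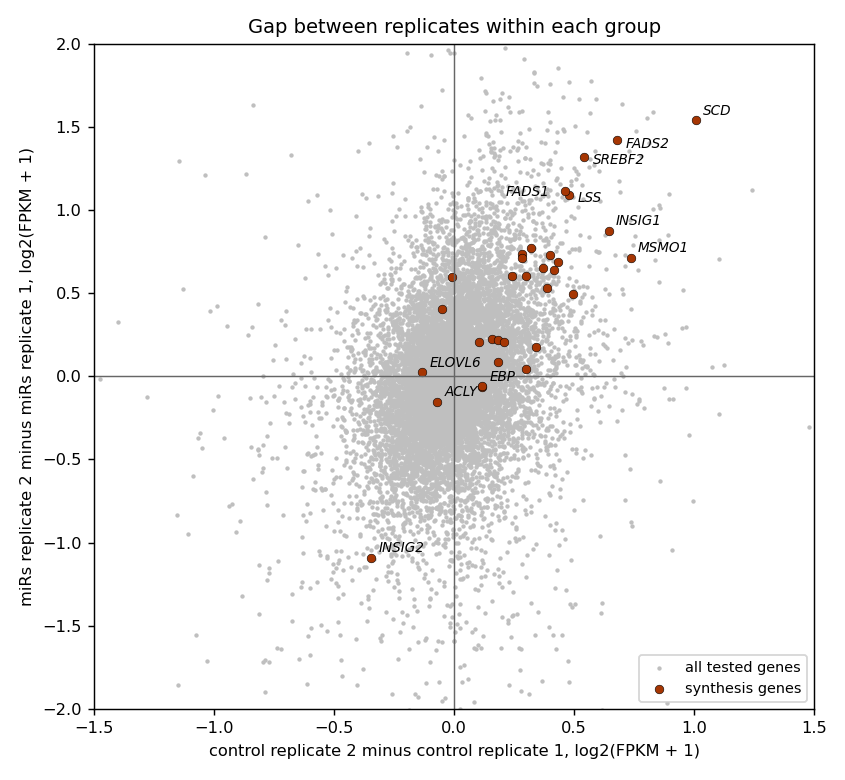
Gap between the replicates of each group, replicate 2 minus replicate 1 in log2(FPKM + 1), with control on the horizontal and miRs on the vertical axis; grey points are the tested genes (169 lie outside the axes) and coloured points the 32 genes. Of the coloured points, 25 lie in the upper right, led by SCD, FADS2 and SREBF2, and INSIG2 and ACLY lie in the lower left.

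The first enzymes of the pathway overlapped between the groups, with 2 exceptions. PMVK, which phosphorylates mevalonate phosphate, was at 16.5 FPKM in control 1, 15.9 FPKM in control 2, 9.42 FPKM in miRs 1 and 12.8 FPKM in miRs 2. Both miRs libraries lay below both controls, at a log2 difference of −0.52 ± 0.18 (SE; limma unadjusted p = 0.0393, adjusted p = 0.188). FDPS, the synthase of farnesyl diphosphate, was at 70.9 FPKM in control 1, 79.2 FPKM in control 2, 59.4 FPKM in miRs 1 and 69.7 FPKM in miRs 2. The miRs libraries were below the controls by little, with a log2 difference of −0.22 ± 0.15 (adjusted p = 0.418 in limma), and RefSeq lists 10 pseudogenes of FDPS, which makes its level uncertain. ACAT2, the cytosolic thiolase that starts the pathway, was at 25.8 FPKM in control 1, 30.6 FPKM in control 2, 25.6 FPKM in miRs 1 and 39.3 FPKM in miRs 2. HMGCS1, the HMG-CoA synthase, was at 4.87 FPKM in control 1, 7.27 FPKM in control 2, 5.61 FPKM in miRs 1 and 8.33 FPKM in miRs 2. In both genes replicate 2 was the higher in each group and the groups overlapped, with log2 differences of 0.17 ± 0.24 for ACAT2 and 0.17 ± 0.26 for HMGCS1 (adjusted p = 0.694 and 0.714 in limma), and in RefSeq ACAT2 overlaps the genes TCP1 and SOD2, so its level is uncertain as well.

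Of the other early enzymes, mevalonate kinase (MVK) was at 5.33 and 7.27 FPKM (control) and 4.77 and 7.33 FPKM (miRs), with a log2 difference of −0.062 ± 0.25. MVD, which forms isopentenyl diphosphate, was at 16.3 and 20.6 FPKM (control) and 11.1 and 19.7 FPKM (miRs). In MVD 1 library stood apart: miRs replicate 1 was the lowest of the 4, and miRs replicate 2 lay between the controls, for a log2 difference of −0.29 ± 0.30. IDI1, the isomerase of isopentenyl diphosphate, was at 13.1 and 16.9 FPKM (control) and 15.6 and 17.8 FPKM (miRs) and had a log2 difference of 0.15 ± 0.17. In RefSeq MVK overlaps MMAB, and IDI1 overlaps WDR37 and has 3 listed pseudogenes. Adjusted p in limma was 0.894 for MVK, 0.584 for MVD and 0.618 for IDI1.

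The 3 enzymes that carry farnesyl diphosphate to lanosterol had both libraries numbered 2 above both numbered 1. Lanosterol synthase, LSS, was at 21.9 FPKM in control 1, 30.8 FPKM in control 2, 18.7 FPKM in miRs 1 and 40.9 FPKM in miRs 2. Its miRs libraries were 2.19-fold apart and lay on either side of the controls. FDFT1, squalene synthase, was at 39.7 FPKM in control 1, 52.7 FPKM in control 2, 41.3 FPKM in miRs 1 and 69.1 FPKM in miRs 2. SQLE, squalene epoxidase, was at 11.3 FPKM in control 1, 14.8 FPKM in control 2, 8.95 FPKM in miRs 1 and 14.6 FPKM in miRs 2, with replicate 2 at nearly the same level in both groups and miRs replicate 1 the lowest. Their log2 differences were 0.22 ± 0.30 for FDFT1, −0.16 ± 0.27 for SQLE and 0.090 ± 0.41 for LSS, each smaller than its standard error (adjusted p from 0.679 to 0.909 in limma).

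Among the enzymes that turn lanosterol into cholesterol, EBP, the sterol isomerase that moves the double bond of the second ring, was at 18.9 FPKM in control 1, 20.6 FPKM in control 2, 39.8 FPKM in miRs 1 and 38.2 FPKM in miRs 2. All 4 values were close within their group, and the group means were 19.8 ± 1.18 FPKM for control against 39.0 ± 1.13 FPKM for miRs (SD, n = 2 per group). The log2 difference of 0.95 ± 0.13 had an unadjusted p of 0.000931 and an adjusted p of 0.0667 in limma. The difference was as large in each miRs library alone, at 0.98 in replicate 1 and 0.92 in replicate 2 against the mean of the controls. CYP51A1, the lanosterol demethylase, was at 14.8 and 17.0 FPKM (control) and 17.1 and 18.2 FPKM (miRs), so that its groups did not overlap but nearly met (log2 difference 0.14 ± 0.14, adjusted p = 0.556 in limma). CYP51A1 has 3 listed pseudogenes.

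TM7SF2, a reductase of the sterol C14 double bond, was at 4.40 FPKM in control 1, 4.36 FPKM in control 2, 2.32 FPKM in miRs 1 and 4.04 FPKM in miRs 2. The controls were nearly equal and both miRs libraries were lower, miRs replicate 2 only slightly (log2 difference −0.40 ± 0.24, adjusted p = 0.373 in limma). LBR, a nuclear envelope protein with the same reductase activity, is no member but was on the list of isoprenoid branches, where it had the smallest p. It was at 14.4 FPKM in control 1, 13.7 FPKM in control 2, 28.8 FPKM in miRs 1 and 35.4 FPKM in miRs 2, 2.29-fold of the control mean, with a log2 difference of 1.14 ± 0.15 (unadjusted p = 0.00103, adjusted p = 0.0674 in limma). The difference between TM7SF2 and LBR was not tested.

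MSMO1, which removes the methyl groups at C4 of the sterol, was at 14.1 FPKM in control 1, 24.2 FPKM in control 2, 17.7 FPKM in miRs 1 and 29.6 FPKM in miRs 2. Its replicates were 1.71-fold apart in control and 1.68-fold in miRs, replicate 2 being the higher in both. DHCR7, which makes cholesterol from 7-dehydrocholesterol, was at 16.1 and 19.8 FPKM (control) and 15.8 and 27.0 FPKM (miRs), and miRs replicate 2 was the highest. HSD17B7, a sterol ketoreductase, had the lowest mean over the 4 libraries of the 32 genes, at 2.05 and 3.07 FPKM (control) and 2.35 and 4.21 FPKM (miRs), and 2 listed pseudogenes make it uncertain. NSDHL, which acts with MSMO1 at C4, was at 21.5 and 23.3 FPKM (control) and 21.6 and 20.6 FPKM (miRs), and SC5D, the sterol C5 desaturase, at 5.03 and 5.85 FPKM (control) and 4.99 and 5.95 FPKM (miRs). These last 2 differed little among libraries, with log2 differences of −0.082 ± 0.13 and 0.0062 ± 0.16. The log2 differences were 0.29 ± 0.36 for MSMO1, 0.20 ± 0.29 for DHCR7 and 0.25 ± 0.29 for HSD17B7. Over these 5 genes the adjusted p in limma ran from 0.636 to 0.987.

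The regulators differed among themselves. SREBF2, which encodes SREBP-2, the main activator of cholesterol genes, was at 22.4 FPKM in control 1, 33.0 FPKM in control 2, 13.2 FPKM in miRs 1 and 34.4 FPKM in miRs 2. The miRs libraries were 2.62-fold apart, with replicate 1 below and replicate 2 above both controls, and the log2 difference of −0.33 ± 0.49 was within that spread (adjusted p = 0.700 in limma). SREBF1, which encodes SREBP-1 and overlaps RAI1 in RefSeq, was at 10.3 FPKM in control 1, 14.3 FPKM in control 2, 10.0 FPKM in miRs 1 and 16.7 FPKM in miRs 2, in the same order of libraries, with a log2 difference of 0.086 ± 0.29 (adjusted p = 0.875 in limma). SCAP, the escort protein, was at 17.5 and 18.9 FPKM (control) and 18.1 and 21.1 FPKM (miRs), with a log2 difference of 0.10 ± 0.14 (adjusted p = 0.686 in limma).

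INSIG1, itself a known target of the SREBPs, was at 8.94 FPKM in control 1, 14.5 FPKM in control 2, 13.7 FPKM in miRs 1 and 26.0 FPKM in miRs 2. Replicate 2 was the higher in both groups, 1.62-fold in control and 1.90-fold in miRs, and miRs replicate 1 lay between the controls. The group means were 11.7 ± 3.95 FPKM for control against 19.9 ± 8.70 FPKM for miRs (SD, n = 2 per group), a log2 difference of 0.68 ± 0.38 with an adjusted p of 0.335 in limma. INSIG2, its paralog, went the other way between replicates: it was at 4.97 FPKM in control 1, 3.70 FPKM in control 2, 7.69 FPKM in miRs 1 and 3.08 FPKM in miRs 2. Here replicate 1 was the higher in both groups, and in miRs it was 2.50-fold above replicate 2, while the log2 difference between the groups was 0.17 ± 0.40 (adjusted p = 0.819 in limma). INSIG2 was the only one of the 19 members over 1.5-fold apart between the miRs libraries in which replicate 1 was the higher. STARD4, a carrier of sterols between membranes, was at 11.3 and 13.2 FPKM (control) and 8.89 and 10.4 FPKM (miRs), so both miRs libraries were below both controls (log2 difference −0.31 ± 0.15, adjusted p = 0.295 in limma).

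For fatty acid synthesis, ACLY, which makes cytosolic acetyl-CoA from citrate, had the highest mean of the 32 genes and was at 107 FPKM in control 1, 102 FPKM in control 2, 92.1 FPKM in miRs 1 and 82.8 FPKM in miRs 2. Both miRs libraries were below both controls, with a log2 difference of −0.26 ± 0.13 (adjusted p = 0.298 in limma), and it was, with INSIG2, 1 of 2 members in which replicate 2 was the lower in both groups. ACACA, acetyl-CoA carboxylase, which overlaps C17orf78 in RefSeq, was at 9.29 and 11.7 FPKM (control) and 6.96 and 11.1 FPKM (miRs). FASN, the fatty acid synthase, was at 22.0 and 27.0 FPKM (control) and 16.5 and 27.6 FPKM (miRs). In ACACA and FASN miRs replicate 1 was the lowest library while miRs replicate 2 was near control replicate 2 (log2 differences −0.22 ± 0.25 and −0.18 ± 0.28, adjusted p = 0.630 and 0.715 in limma).

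The desaturases had some of the widest gaps between replicates. SCD, which introduces the first double bond into saturated fatty acids, was at 24.4 FPKM in control 1, 50.0 FPKM in control 2, 26.2 FPKM in miRs 1 and 78.1 FPKM in miRs 2. Replicate 2 was 2.05-fold above replicate 1 in control and 2.98-fold in miRs, while the log2 difference between the groups was 0.37 ± 0.62 (adjusted p = 0.744 in limma). FADS2, the delta-6 desaturase of polyunsaturated fatty acids, was at 53.3 FPKM in control 1, 85.9 FPKM in control 2, 31.4 FPKM in miRs 1 and 85.7 FPKM in miRs 2, 1.61-fold apart in control and 2.73-fold in miRs, with nearly equal values in the libraries numbered 2 (log2 difference −0.37 ± 0.53, adjusted p = 0.693 in limma). FADS1, the delta-5 desaturase, was at 17.3 FPKM in control 1, 24.2 FPKM in control 2, 8.79 FPKM in miRs 1 and 20.2 FPKM in miRs 2, and the mean of miRs was the lower at a log2 difference of −0.57 ± 0.42 (adjusted p = 0.443 in limma). FADS1 and FADS2 overlap in RefSeq, and SCD has 1 listed pseudogene, so reads may be split between them.

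ELOVL6, an elongase which lengthens palmitate to stearate, was at 11.9 FPKM in control 1, 10.7 FPKM in control 2, 18.6 FPKM in miRs 1 and 18.9 FPKM in miRs 2. The groups were far apart for their spread, 11.3 ± 0.802 FPKM for control against 18.8 ± 0.246 FPKM for miRs (SD, n = 2 per group), and the log2 difference of 0.68 ± 0.13 had an unadjusted p of 0.00390 and an adjusted p of 0.0880 in limma. As with EBP, each miRs library alone gave a like value, 0.67 in replicate 1 and 0.70 in replicate 2. ELOVL5, which lengthens polyunsaturated fatty acids, was at 25.7 and 31.9 FPKM (control) and 27.3 and 28.2 FPKM (miRs), with overlapping groups (log2 difference −0.046 ± 0.15, adjusted p = 0.875 in limma).

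**Figure D3:**
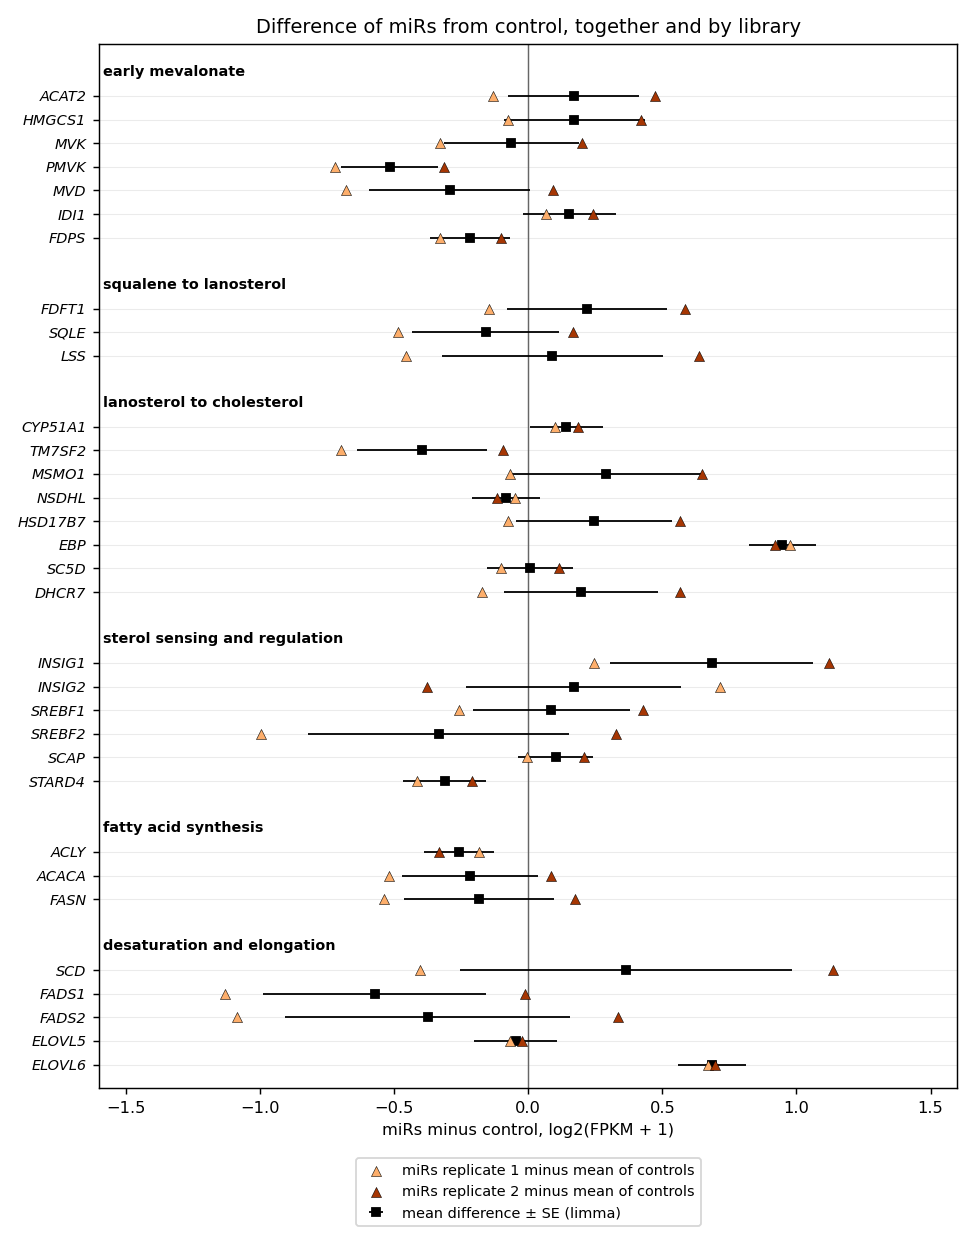
Difference of miRs from control for each of the 32 genes in log2(FPKM + 1); squares with bars are the difference of means ± SE in limma, and triangles each miRs library against the mean of the 2 controls. The triangles of EBP and ELOVL6 coincide near their means of 0.95 and 0.68, while those of SREBF2, SCD and FADS2 lie on opposite sides of 0.

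Other genes of sterol handling were taken from lists chosen by function, and none of their members passed over all genes in limma. Of 16 genes of sterol trafficking and SREBP processing, 5 were above and 4 below both controls in both miRs libraries (29.5% and 30.0% of all tested genes), and 3 higher and 3 lower had an unadjusted p under 0.05 (11.2% higher and 13.0% lower among all tested genes). The first 2 counts are near the shares over all tested genes. LIPA, the lysosomal lipase that frees cholesterol from its esters, was at 14.4 and 14.4 FPKM (control) and 41.0 and 25.7 FPKM (miRs), with an adjusted p of 0.101 in limma. NPC1, which passes that cholesterol out of the lysosome, was at 9.38 and 7.09 FPKM (control) and 14.2 and 12.2 FPKM (miRs). MBTPS2, the protease that makes the last cut in SREBP activation, was at 12.6 and 11.6 FPKM (control) and 7.80 and 7.21 FPKM (miRs), below both controls in both miRs libraries (adjusted p = 0.0962 in limma).

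Of 13 genes of the liver X receptors and cholesterol export, 11 were tested, 6 were above and 3 below both controls in both miRs libraries (29.5% and 30.0% of all tested genes), and 3 had an unadjusted p under 0.05, all higher (11.2% higher and 13.0% lower among all tested genes). LPCAT3, which puts polyunsaturated chains into phospholipids, was at 11.4 and 13.0 FPKM (control) and 20.1 and 27.9 FPKM (miRs). ABCA1, the pump that exports cholesterol to apolipoproteins, was at 4.23 and 4.61 FPKM (control) and 6.53 and 8.02 FPKM (miRs), and the apolipoprotein APOE at 8.34 and 3.55 FPKM (control) and 10.7 and 26.1 FPKM (miRs). RXRB, a receptor that pairs with the liver X receptors, was at 21.9 and 21.5 FPKM (control) and 11.3 and 18.1 FPKM (miRs), below both controls. Adjusted p in limma was 0.102, 0.126, 0.203 and 0.242 for these 4. CH25H, the interferon-induced enzyme of 25-hydroxycholesterol, was under the testing minimum and was listed at 0 in control 1, at 0.293 FPKM in control 2, at 2.82 FPKM in miRs 1 and at 0.358 FPKM in miRs 2. It was named after its values were seen.

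In the isoprenoid branches, 7 of 13 genes were above and 0 below both controls in both miRs libraries (29.5% and 30.0% of all tested genes), and 3 had an unadjusted p under 0.05, LBR, PDSS1 and FNTA, all higher (11.2% higher and 13.0% lower among all tested genes). These counts include LBR, although its reductase activity belongs to the steps from lanosterol to cholesterol. PDSS1, which builds the side chain of ubiquinone, was at 3.77 and 3.35 FPKM (control) and 7.98 and 6.13 FPKM (miRs). FNTA, the shared subunit of the protein prenyltransferases, was at 22.4 and 22.7 FPKM (control) and 34.0 and 32.0 FPKM (miRs). Of 21 genes of fatty acid supply and chain modification, 18 were tested, 5 were above and 8 below both controls in both miRs libraries (29.5% and 30.0% of all tested genes), and 2 higher and 4 lower had an unadjusted p under 0.05 (11.2% higher and 13.0% lower among all tested genes). ACSL5, counted as above and as higher, was at 0.354 and 0.438 FPKM (control) and 5.53 and 1.68 FPKM (miRs). It reached the testing minimum only through the miRs libraries, so its place above the controls was nearly fixed by that minimum. ACSL5 was named after its values were seen. SCD5, the second stearoyl desaturase, was at 12.4 FPKM in control 1, 8.77 FPKM in control 2, 2.41 FPKM in miRs 1 and 3.66 FPKM in miRs 2, a log2 difference of −1.52 ± 0.25 (adjusted p = 0.0809 in limma), where SCD had 0.37 ± 0.62. That contrast was not tested. ACSL3, an acyl-CoA synthetase of lipid droplets, was at 16.3 and 20.6 FPKM (control) and 39.4 and 33.7 FPKM (miRs), and ACSL1, another acyl-CoA synthetase, at 10.0 and 8.56 FPKM (control) and 5.18 and 5.60 FPKM (miRs). ELOVL2, an elongase of very long polyunsaturated chains, was at 5.01 and 5.82 FPKM (control) and 2.27 and 2.83 FPKM (miRs). In SCD5, ACSL3, ACSL1 and ELOVL2 the groups did not overlap, ACSL3 being above and the others below the controls.

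**Figure D4:**
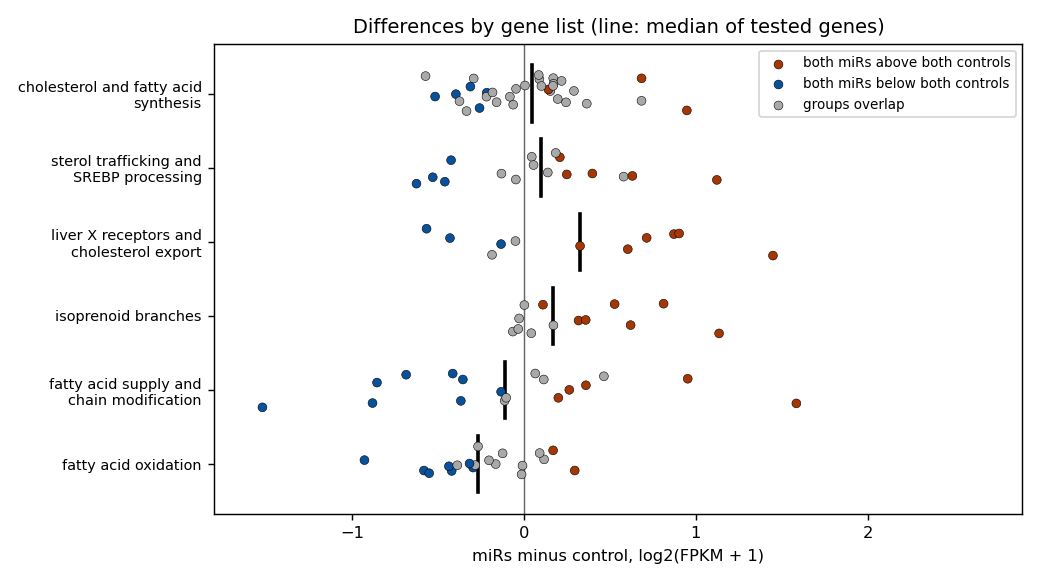
Log2 difference of miRs from control on the log2(FPKM + 1) scale for each tested gene of the 32-gene set and of the 5 other lists of lipid genes, coloured by whether both miRs libraries lie above or below both controls; the black line is the median of the list. The medians run from −0.27 for fatty acid oxidation to 0.33 for liver X receptors and cholesterol export, with 0.046 for the 32 genes.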

How the data were processed

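The 4 libraries were made from total RNA purified on RNeasy columns with the TruSeq Stranded mRNA kit, per the labels' protocols. The authors deposited 1 FPKM value for each gene symbol in each library, per the file headers. Per the submitters' processing notes, the tools were Cuffdiff 2.2.1, TopHat2 2.1.1, SAMtools 0.1.18 and Bowtie2 2.2.8, in no stated role, and the build was hg19. Annotation, strand setting and library scaling were not given in those notes or in the labels. FPKM is no count, and overlapping genes can exchange fragments.

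Genes averaging 1 FPKM or more were tested on log2(FPKM + 1) by limma 3.58.1 (R 4.3.3) with a variance trend, 2-sided, adjusted by Benjamini-Hochberg over all 11860 genes at 0.05, with 2 residual degrees of freedom. Other sums, shares and motif searches used Python 3.11.15, numpy 2.4.6 and pandas 2.3.3. Motif letters were chosen with the values known. On simulated data for miRs against control over 11860 genes, limma found 8 of 100 genes given a log2 change of 1, 83 of 100 given 2, and 3 of 11660 left as they were. The simulated libraries were independent, had the same spread in both groups, and were changed only in genes of higher level. In the real data the miRs replicates were over 1.5-fold apart for 24.6% of tested genes and the control replicates for 5.89%. The simulated rates may therefore not hold for these data. The members, the lists and the naming rule (all members; in each other list up to 4 tested genes of smallest p) were chosen with earlier results of these data known. Alternatives were another pseudocount, no or a higher minimum, 2 other scalings, no variance trend, a replicate block and each library left out. A few genes that the naming rule picks are not reported here, and other genes of these pathways were not analysed here.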

Additional observations from a re-analysis of the deposited data

How the results depend on the processing

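Over all genes, limma called 29, and 0 with no minimum FPKM (3338 at an unadjusted p under 0.05), 6 with quantile normalization and 99 with the replicate number as a block. It called from 0 to 3746 when 1 library was left out, the fewest without control replicate 1 (886 at an unadjusted p under 0.05) and the most without miRs replicate 2. Of the members it called from 0 to 7 when 1 library was left out, and 0 under every alternative that kept all 4, with 3 (5 with the block) at an unadjusted p under 0.05. Same-numbered libraries share only a number in the labels. Over 11860 genes their gaps had an r of 0.20, from 2 pairs. Of the 32 members, 31 kept the sign of their log2 difference in the alternatives with all 4 libraries, and SC5D turned to −0.020 with quantile normalization. Leaving out 1 library turned the sign of 21 members and left that of 11, EBP, ELOVL6, INSIG1, CYP51A1, PMVK, FDPS, TM7SF2, NSDHL, STARD4, ACLY and FADS1. The ranges of log2 differences over these fits, for the members that turned, were ACACA −0.52 to 0.084, ACAT2 −0.13 to 0.47, DHCR7 −0.17 to 0.57, ELOVL5 −0.20 to 0.10, FADS2 −1.08 to 0.34, FASN −0.54 to 0.17, FDFT1 −0.14 to 0.58, HMGCS1 −0.076 to 0.42, HSD17B7 −0.074 to 0.56, IDI1 −0.016 to 0.32, INSIG2 −0.38 to 0.72, LSS −0.46 to 0.64, MSMO1 −0.077 to 0.66, MVD −0.68 to 0.093, MVK −0.33 to 0.20, SC5D −0.10 to 0.11, SCAP −0.0026 to 0.21, SCD −0.41 to 1.14, SQLE −0.48 to 0.17, SREBF1 −0.26 to 0.43, SREBF2 −0.995 to 0.33. The cause was not tested. The number of fragments is unknown, so counting error could not be set beside the spread of the libraries.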

Other observations

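Genes of fatty acid oxidation, the pathway that breaks down what the synthesis enzymes make, had a median of −0.27 in log2 difference over 19 tested genes (−0.18 in miRs replicate 1 and −0.23 in miRs replicate 2), with 2 above and 7 below both controls in both miRs libraries (29.5% and 30.0% of all tested genes). None was called over all genes in limma, and 3 had an unadjusted p under 0.05, all lower (11.2% higher and 13.0% lower among all tested genes). The counts of lower genes are near those shares. PPARD, a nuclear receptor of fatty acids, was at 32.3 and 34.2 FPKM (control) and 14.6 and 19.8 FPKM (miRs), with an adjusted p of 0.0925 in limma. CPT1A, which admits fatty acids to mitochondria, was at 14.5 and 13.8 FPKM (control) and 10.6 and 10.0 FPKM (miRs), and ACADVL, which starts the oxidation of long chains, at 153 and 127 FPKM (control) and 104 and 82.8 FPKM (miRs). ACADSB, a dehydrogenase of short branched chains, was at 3.41 and 3.59 FPKM (control) and 2.05 and 2.63 FPKM (miRs).

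PPARG, the nuclear receptor of fat storage and the adipocyte marker with the smallest p, was at 17.7 FPKM in control 1, 17.3 FPKM in control 2, 30.1 FPKM in miRs 1 and 36.8 FPKM in miRs 2, a log2 difference of 0.89 ± 0.15 (adjusted p = 0.0843 in limma). PLIN4, a lipid droplet coat protein, was at 0.134 and 0.224 FPKM (control) and 0.588 and 4.51 FPKM (miRs), and FABP4, a fatty acid carrier, at 1.81 and 1.36 FPKM (control) and 0.580 and 3.31 FPKM (miRs). PLIN4 reached the testing minimum only through miRs 2. ADIPOQ, LEP and LPL, other adipocyte markers, were listed at 0 in all 4 libraries.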
